A study of Mus musculus with 12 samples.

Results

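The 10 genes described here, Retnla, Chil3, Arg1, Mrc1, Cd163, Folr2, Il4ra, Clec10a, Mgl2 and Pdcd1lg2, mark macrophages activated by the type 2 cytokines IL-4 and IL-13 or macrophages resident in tissue. They were selected on a measured value and on known function: Retnla was chosen by its lower level in patch-covered wounds than in film-covered wounds of these same mice, and the 9 others were added for their known link to type 2 activated or resident macrophages. All 10 passed the filter on low counts, out of 54232 genes listed and 18618 tested. The study sequenced RNA of 12 wounds on the backs of male C57BLKS/J mice labelled Lepr (db/db), a leptin receptor mutation that produces obesity and diabetes, with a labelled age of 12.5 weeks and wounds collected on day 10 after a 6 mm full-thickness punch. The TD group had 5 libraries from wounds under Tegaderm, a transparent film dressing. The Strain group had 4 libraries from wounds under a patch that strains the skin by about 30%, and 3 libraries made up the No Strain group, from wounds under a strain-free patch. All groups carried the db/db mutation and all were wounded, so there were no lean or unwounded controls. The labels do not say which wounds shared a mouse, so p-values measure only the spread between these libraries, which may in part be technical.

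IL-4 and IL-13 bind receptors that share the IL-4 receptor alpha chain, encoded by Il4ra, and activate the transcription factor STAT6. In mouse macrophages this pathway induces secreted proteins such as RELM-alpha (Retnla) and Ym1 (Chil3), the enzyme arginase 1 (Arg1) and lectin receptors of the cell surface. In healing skin such macrophages are associated with repair and matrix formation, and Cd163 and Folr2 are commonly used to mark macrophages resident in tissue.

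STAT proteins bind palindromic DNA whose outer letters are TTC and GAA, with STAT6 known to favour a spacing of 4 bases. The spacings of 4 and of 3 bases (TTC, then 4 or 3 bases of any kind, then GAA) were searched in windows from 250 bases before to 50 bases after each RefSeq transcript start (GRCm38.p6); because the fixed letters read the same on both strands, 1 search covered both, and no window of these genes held both strings. RefSeq windows were matched for 8 of the 10 genes (9 windows, with 2 for Folr2), and Arg1 and Clec10a had no entry. The sequences shown are those of the 3 genes with a match, on the strand of the gene, 5′ to 3′, stopping before every annotated transcript start, with the match in capitals. The Retnla window lies at chr16:48842359-48842550 (plus strand, match starting at position -145 from the RefSeq start), the Chil3 window at chr3:106167565-106167814 (minus strand, -172) and the Pdcd1lg2 window at chr19:29410669-29410918 (plus strand, -82).
Retnla: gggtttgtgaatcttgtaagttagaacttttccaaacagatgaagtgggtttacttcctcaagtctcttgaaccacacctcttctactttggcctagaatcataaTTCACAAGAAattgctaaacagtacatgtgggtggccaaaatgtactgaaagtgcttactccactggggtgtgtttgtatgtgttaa
Chil3: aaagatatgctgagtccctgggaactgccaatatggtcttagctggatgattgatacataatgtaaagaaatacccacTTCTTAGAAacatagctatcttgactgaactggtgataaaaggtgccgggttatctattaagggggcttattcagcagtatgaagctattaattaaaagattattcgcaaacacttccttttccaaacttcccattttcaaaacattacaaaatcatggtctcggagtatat
Pdcd1lg2: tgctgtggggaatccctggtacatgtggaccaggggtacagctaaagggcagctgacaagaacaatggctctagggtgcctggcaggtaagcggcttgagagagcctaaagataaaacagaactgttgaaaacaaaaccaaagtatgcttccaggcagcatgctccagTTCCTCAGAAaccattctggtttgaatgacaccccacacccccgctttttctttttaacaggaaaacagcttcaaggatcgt
Retnla and Pdcd1lg2 held the string with 4 bases between TTC and GAA, which 6.95% of 32851 mouse promoter windows of the same length held, and Chil3 held the string with 3 bases between, which 8.30% held. The windows of Mrc1, Cd163, Folr2, Il4ra and Mgl2 held neither string. Of the 3 genes with a match, Retnla was lower under patches, Chil3 was higher, and Pdcd1lg2 did not pass the test in any comparison.

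Libraries held 20354677 to 25059371 counts, so 3 counts, the floor used here for a gene at 0, were at most 0.147 CPM of the unscaled total. CPM (counts per 1e6) divides each count by a library total scaled by edgeR's trimmed mean of M-values (TMM). In bulk tissue fewer cells of a type and less RNA per cell cannot be told apart. The wounds held general macrophage RNA in every library: none of 18 pan-macrophage genes, such as Adgre1 and Csf1r, was at 0, and their summed level was 3408 to 7497 CPM in TD, 6593 to 11990 in Strain and 8247 to 12700 in No Strain. In the same order, skeletal muscle genes summed to 7837 to 19430, 3673 to 6951 and 5381 to 11400 CPM, adipocyte genes to 4256 to 7736, 2546 to 3559 and 2413 to 3177 CPM, and neutrophil genes to 563.5 to 1791, 1093 to 9154 and 2463 to 5598 CPM. The libraries therefore differed between groups in tissue and cell markers as well as in the genes described, and the part of these differences in each result was not tested. Sample titles carry the numbers 1 to 6 in TD and 7 to 15 in the patch groups. If these numbers reflect an order of work, that order and the treatment cannot be told apart. Titles also carry a letter whose meaning the labels do not give. It was L for TD 1, Strain 1, Strain 2, Strain 4, No Strain 2 and No Strain 3, and R for the others. Letter and treatment were thus unbalanced and can be told apart only in part.

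Retnla (ENSMUSG00000061100, chr16:48842551-48844461, plus strand) encodes the small secreted cysteine-rich protein RELM-alpha, known from macrophages, airway epithelium and fat tissue (gene positions here and below are on GRCm38), and was the member with the widest separation between groups. Its level was 32.6, 41.3, 34.1, 28.8 and 47.0 CPM in TD libraries 1 to 5. It was 1.84, 1.39, 1.36 and 1.15 CPM in Strain libraries 1 to 4, and 1.03, 0.772 and 0.372 CPM in No Strain libraries 1 to 3. The 7 patch libraries all lay below the 5 TD libraries, and the lowest TD value was far above the highest patch value. The low values rested on few reads, with 24 to 37 counts in Strain and 8 to 23 in No Strain, against 714 to 1072 in TD; for the lowest library the exact 95% Poisson interval of 8 counts ran from 3.45 to 15.8, which covers counting error only. The fitted level was 25.6-fold lower in Strain than in TD (log2 fold change -4.68, SE 0.24) and 50.1-fold lower in No Strain (-5.65, SE 0.30). Since this difference chose the gene, these values are a description and no test is given. Among all genes tested, Retnla's estimate ranked 5 from the lowest in Strain against TD and 4 from the lowest in No Strain against TD.

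The contrast between the patch groups was not used to choose Retnla. There the 4 Strain values of Retnla all lay above the 3 No Strain values, with a log2 difference of 0.97 (SE 0.31). This difference had an unadjusted p of 0.0089 and an adjusted p of 0.872 over all genes (edgeR quasi-likelihood test, Benjamini-Hochberg), so it did not pass the threshold of 0.05.

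**Figure D1:**
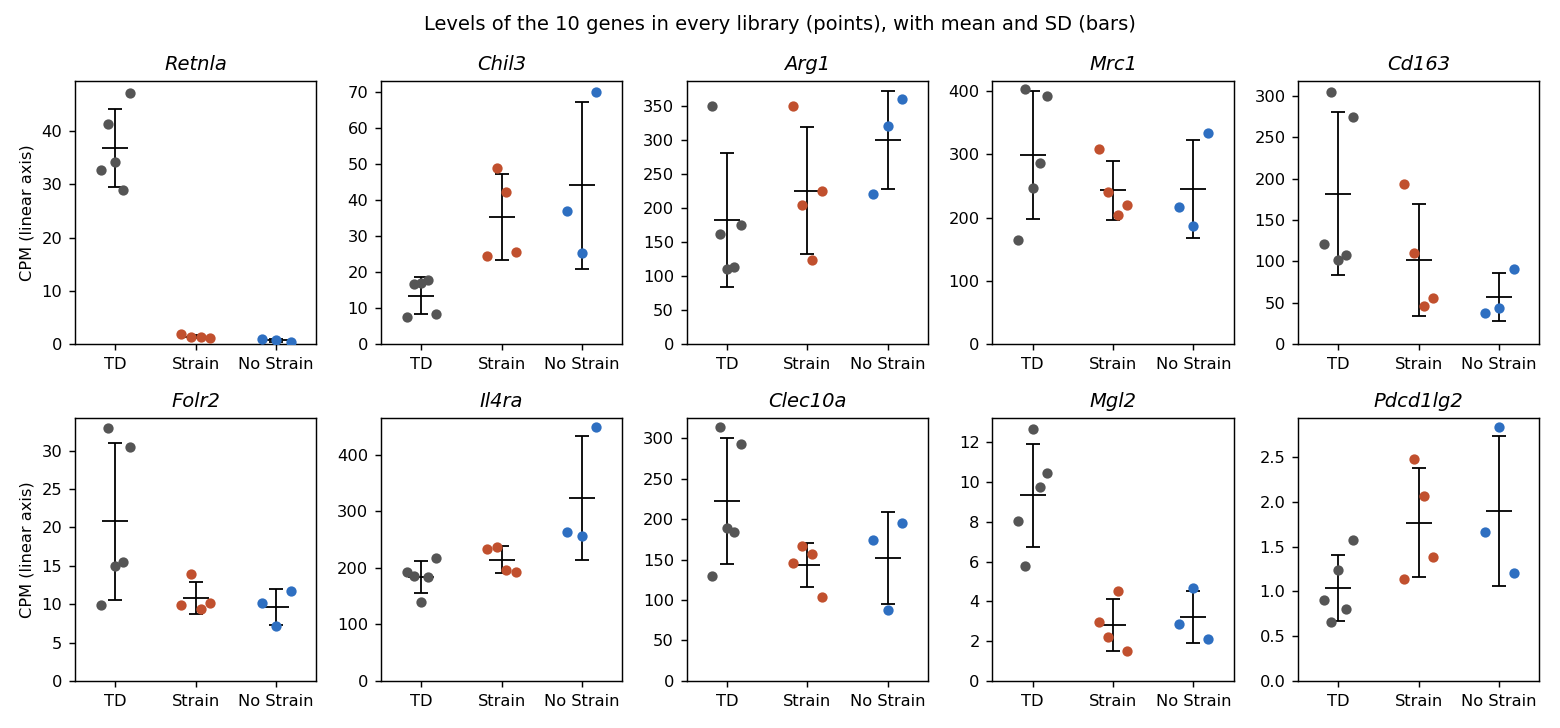
Level of each of the 10 genes (CPM, linear axis from 0, a scale of its own per gene) in every library of the TD (grey, n = 5), Strain (red, n = 4) and No Strain (blue, n = 3) groups; points are libraries and bars are the mean and SD. The Retnla values of the 7 patch libraries lie between 0.372 and 1.84 CPM, all below the lowest TD value of 28.8 CPM, whereas Chil3 is higher in the patch libraries and Mrc1 overlaps in all groups.

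The other 9 genes did not follow Retnla as a block. Against TD, 2 of the 9 passed an adjusted p of 0.05 in Strain, where 12.6% of all genes tested passed, and 3 of the 9 passed in No Strain, where 17.8% passed. Of these, Chil3 was higher in both patch groups, Il4ra was higher in No Strain, and Mgl2 was lower in both; 6.2% and 9.35% of all genes were called higher, and 6.41% and 8.4% lower, in Strain and in No Strain. The median log2 fold change of the 9 was -0.30 in Strain and -0.28 in No Strain, beside 0.02 and 0.00 over all genes tested, with 4 estimates above 0 and 5 below in each comparison. Libraries did not overlap between groups for 2 of the 9 in Strain against TD (14.6% of all genes) and for 4 of the 9 in No Strain against TD (26.7% of all genes). The comparisons with TD share the TD libraries, so their likeness is not a second observation.

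Among the secreted and enzymatic products of type 2 activated macrophages, Chil3 differed from TD in the direction opposite to Retnla. Chil3 (ENSMUSG00000040809, chr3:106147554-106167564, minus strand) encodes Ym1, a chitinase-like lectin released by activated mouse macrophages and also stored by neutrophils. It stood at 7.45, 16.7, 16.9, 17.9 and 8.29 CPM in TD, at 24.6, 48.8, 42.1 and 25.7 CPM in Strain, and at 37.0, 25.3 and 69.9 CPM in No Strain. All 7 patch libraries were above all 5 TD libraries. The log2 fold change was 1.39 (SE 0.36, adjusted p = 0.0311) in Strain and 1.71 (SE 0.38, adjusted p = 0.0137) in No Strain. The Strain call was lost, with adjusted p between 0.0502 and 0.100, on leaving out TD 1, TD 2, TD 3, TD 5, Strain 2 or Strain 3, and also with no filter on low counts (0.0920), with the letter of the sample title as a covariate (0.0620) or with the muscle genes as one (2.87, adjusted p = 0.215). The mean of the muscle genes was 7.905 to 9.224 log2 CPM in TD and 6.81 to 7.69 in Strain, without overlap. That covariate and the treatment can thus be told apart only in part, and its fit called 1 gene of all in Strain against TD. The No Strain call was lost on leaving out No Strain 3 (1.21, adjusted p = 0.0732). The neutrophil list, summed above, was higher for 13 of 18 genes in Strain and 11 of 18 in No Strain. Of all genes, 6.2% and 9.35% were called higher there. Among the neutrophil genes was Mmp8, a neutrophil collagenase (2.12 and 3.49, adjusted p = 0.00856 and 0.00111). The part of this list in the Chil3 result was not tested.

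Arg1 (ENSMUSG00000019987, chr10:24915221-24927484, minus strand) encodes arginase 1, which splits arginine into ornithine and urea and competes with nitric oxide synthase for its substrate. It stood at 350.0, 162.0, 110.3, 112.8 and 175.1 CPM in TD, at 350.1, 203.9, 123.2 and 225.7 CPM in Strain, and at 220.7, 320.1 and 360.1 CPM in No Strain. The groups overlapped, with TD 1 as high as the highest patch libraries. TD 1 was also the only TD library with the title letter L. Against TD, the estimate was a log2 fold change of 0.31 (SE 0.37, adjusted p = 0.615) in Strain and 0.72 (SE 0.39, adjusted p = 0.227) in No Strain. Leaving out TD 1 brought the No Strain difference past the threshold, at 1.10 (adjusted p = 0.0433), and the Strain estimate turned to -0.21 with the title letter and to -0.53 with the muscle genes as a covariate (adjusted p = 0.615 and 0.864). The mitochondrial isoenzyme Arg2, which shares no 50-base stretch with Arg1, rose by 1.67 in Strain (SE 0.33, adjusted p = 0.0123) and by 2.35 in No Strain (SE 0.35, adjusted p = 0.00287) from 2.08 ± 0.59 CPM (SD, n = 5) in TD. Arg2 was named after its values were seen.

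Pdcd1lg2 (ENSMUSG00000016498, chr19:29410919-29471161, plus strand) encodes PD-L2, a ligand of the inhibitory T cell receptor PD-1 that IL-4 induces on macrophages and dendritic cells. It had the lowest mean per length of transcript in all 3 groups, with libraries that overlapped those of Mgl2 in Strain and those of Retnla and Mgl2 in No Strain. Its level was 0.905, 0.657, 1.24, 0.807 and 1.58 CPM in TD, 1.14, 2.48, 2.06 and 1.39 CPM in Strain, and 1.67, 2.83 and 1.21 CPM in No Strain. The groups overlapped, at 16 to 66 counts per library. Estimates on the log2 scale were 0.78 (SE 0.33, adjusted p = 0.146) in Strain and 0.88 (SE 0.36, adjusted p = 0.110) in No Strain.

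Of the lectin receptors, Mgl2 passed the test against TD, and Clec10a and Mrc1 did not. Mgl2 (ENSMUSG00000040950, chr11:70130329-70137550, plus strand) and Clec10a (ENSMUSG00000000318, chr11:70156197-70170834, plus strand) lie close together on chromosome 11 and encode galactose-type C-type lectins of macrophages and dendritic cells. Mgl2 stood at 8.06, 5.79, 12.7, 9.73 and 10.5 CPM in TD, at 2.98, 2.21, 4.52 and 1.49 CPM in Strain, and at 2.88, 4.68 and 2.09 CPM in No Strain. Every patch library was below every TD library, and Mgl2 fell by 1.73 on the log2 scale in Strain (SE 0.34, adjusted p = 0.0124) and by 1.54 in No Strain (SE 0.38, adjusted p = 0.0196). The Strain call held in all 12 fits that left out 1 library and was lost with the muscle genes as a covariate (-1.66, adjusted p = 0.459). That fit called almost no gene in Strain, so the lost call is not particular to Mgl2. The No Strain call was lost without No Strain 1 (-1.46, adjusted p = 0.0726) or No Strain 3 (-1.30, adjusted p = 0.0798), and with the title letter (adjusted p = 0.0566) or the muscle genes (adjusted p = 0.107) as a covariate.

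Clec10a stood at 130.4, 314.3, 189.5, 184.6 and 292.6 CPM in TD, at 146.0, 166.5, 157.3 and 104.3 CPM in Strain, and at 174.3, 87.9 and 194.9 CPM in No Strain. The groups overlapped because TD 1 and, against No Strain, TD 3 and TD 4 lay within the patch range. The log2 fold change was -0.63 (SE 0.29, adjusted p = 0.172) in Strain and -0.55 (SE 0.32, adjusted p = 0.257) in No Strain. Transcripts of the 2 genes are alike in part: 8.49% of the 50-base stretches of Clec10a and 12.2% of those of Mgl2 occur in the other, so reads could be split between them. Mgl2 counts amounted to 1.84% to 6.69% of Clec10a counts in TD, 1.33% to 2.87% in Strain and 1.07% to 5.32% in No Strain.

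Mrc1 (ENSMUSG00000026712, chr2:14229392-14332057, plus strand) encodes the mannose receptor CD206, the most used surface marker of type 2 activated macrophages. It stood at 164.2, 403.6, 247.4, 285.9 and 391.5 CPM in TD, at 308.7, 239.7, 203.9 and 219.7 CPM in Strain, and at 216.8, 186.7 and 333.2 CPM in No Strain. All 7 patch values lay within the TD range. Fitted log2 fold changes were -0.30 (SE 0.26, adjusted p = 0.481) in Strain and -0.28 (SE 0.29, adjusted p = 0.528) in No Strain. A p above the threshold does not show that the levels were the same.

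The resident macrophage markers Cd163 and Folr2 had lower estimates under patches that did not pass the test. Cd163 (ENSMUSG00000008845, chr6:124304656-124330527, plus strand), the scavenger receptor for haptoglobin bound to hemoglobin, stood at 121.5, 303.9, 101.9, 108.1 and 274.0 CPM in TD, at 193.6, 109.8, 45.9 and 55.6 CPM in Strain, and at 38.0, 43.3 and 90.3 CPM in No Strain. The No Strain libraries all lay below the TD libraries, whereas Strain 1 and Strain 2 lay inside the TD range. The log2 fold change was -0.85 (SE 0.50, adjusted p = 0.287) in Strain and -1.67 (SE 0.57, adjusted p = 0.0659) in No Strain. The No Strain difference passed the threshold with DESeq2 (adjusted p = 0.00900), with limma-voom (0.0341), in a fit of the 2 groups alone (0.0482) and without Strain 1 (0.0439).

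Folr2 (ENSMUSG00000032725, chr7:101839988-101857194, minus strand) encodes folate receptor beta. It stood at 9.91, 33.0, 15.0, 15.6 and 30.4 CPM in TD, at 9.84, 13.9, 9.38 and 10.2 CPM in Strain, and at 10.2, 7.12 and 11.7 CPM in No Strain. Only TD 1 reached down into the patch range. The log2 fold change was -0.94 (SE 0.33, adjusted p = 0.0851) in Strain and -1.10 (SE 0.37, adjusted p = 0.0601) in No Strain, and both passed without TD 1 (adjusted p = 0.0380 and 0.0262) and with DESeq2 (0.0284 and 0.0143), as did No Strain with library totals alone as the scaling (0.0464). The annotation places Gm10602 on the opposite strand over 975 exonic bases of Folr2, with at most 126 counts of its own in a library, and the strand setting of the counting is not given in the sources used here.

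Il4ra (ENSMUSG00000030748, chr7:125552120-125579474, plus strand), the receptor chain through which both cytokines signal, was the only member called higher in No Strain but not in Strain. It stood at 192.8, 186.0, 139.2, 183.7 and 217.8 CPM in TD, at 233.3, 237.5, 195.4 and 192.1 CPM in Strain, and at 263.6, 256.2 and 450.1 CPM in No Strain. The No Strain libraries lay above all others, and the highest of them, No Strain 3, stood well above the other two. Relative to TD, the log2 fold change was 0.22 (SE 0.17, adjusted p = 0.425) in Strain and 0.81 (SE 0.19, adjusted p = 0.0148) in No Strain, and the latter fell to 0.50 (adjusted p = 0.0607) without No Strain 3, with an adjusted p of 0.0868 when the muscle genes were a covariate. The direct difference between Strain and No Strain was -0.59 (SE 0.20), with an unadjusted p of 0.0118 and an adjusted p of 0.872, so the patch groups were not shown to differ in Il4ra.

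**Figure D2:**
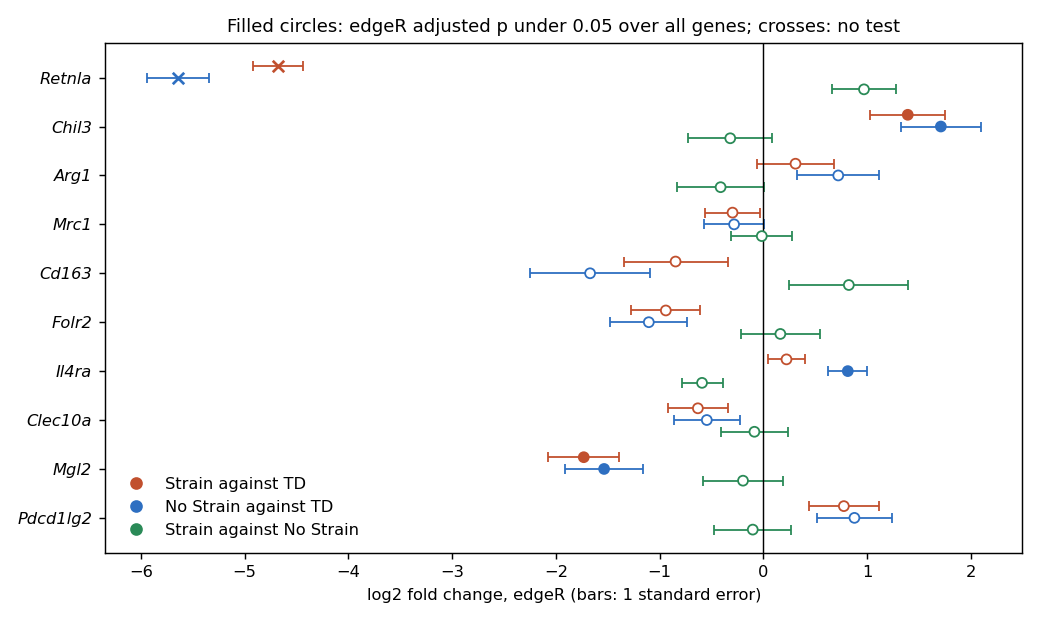
Log2 fold change (edgeR) of each gene in Strain against TD (red), No Strain against TD (blue) and Strain against No Strain (green), with bars of 1 standard error; filled circles passed an adjusted p of 0.05 over all genes and crosses mark the Retnla values that chose the gene, given without a test. Chil3 (1.39 and 1.71) and Mgl2 (-1.73 and -1.54) lie on opposite sides of 0 in both comparisons with TD.

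None of the 10 genes passed the test between the Strain and No Strain patches, and neither did any of the 18618 genes tested (0% called by edgeR, 1045 genes at an unadjusted p under 0.05, and 29 genes called by DESeq2). The estimates of the 9 genes other than Retnla ran from -0.59 (Il4ra) to 0.82 (Cd163), with a median of -0.10 beside 0.01 over all genes. Besides Retnla, Il4ra was the only member whose libraries did not overlap between the patch groups, as was the case for 5.62% of all genes. With 4 against 3 libraries the standard errors of the 10 differences ran from 0.20 to 0.57 on the log2 scale.

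The order of the genes by level per length differed between groups, where each CPM was divided by the length of the gene's exons in kb. In TD, Arg1 (81.7 ± 44.1 CPM per kb, SD, n = 5), Clec10a (76.7 ± 26.9) and Retnla (61.4 ± 12.2) came first, followed by Mrc1, Cd163, Il4ra, Folr2, Chil3, Mgl2 and Pdcd1lg2; neighbours in this order overlapped between libraries, apart from Il4ra against Folr2 and Mgl2 against Pdcd1lg2. In Strain, Arg1 (101.3 ± 42.1, n = 4), Clec10a (49.5 ± 9.47) and Mrc1 (38.1 ± 7.25) came first, and Retnla (2.40 ± 0.48) had rank 8 of 10. In No Strain, Arg1 (134.8 ± 32.2, n = 3) stood above the rest without overlap, Il4ra (53.9 ± 18.3) and Clec10a (52.6 ± 19.6) followed and overlapped each other, and Retnla (1.21 ± 0.56) had rank 9. By group means Retnla was among the 3 highest members per length in TD and among the 3 lowest in both patch groups. This change of rank restates the fall by which the gene was chosen. Arg1 had the highest mean in all 3 groups. In TD this rests on TD 1 (157.1 CPM per kb for Arg1 and 45.0 for Clec10a), since Clec10a stood above Arg1 in the other 4 TD libraries.

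No general macrophage gene was called lower under patches. Of the 18 pan-macrophage genes, 4 passed as higher and 0 as lower in Strain, and 7 and 0 in No Strain, with median log2 fold changes of 0.50 and 0.69. The list was not raised throughout: Adgre1 (0.14 and 0.20) and Csf1r (0.11 and 0.19) did not pass in either comparison. Genes of the monocyte and neutrophil lists were also called higher. Which cells supplied the RNA of the pan-macrophage list was not tested, which also limits its use as a reference below. Over all genes tested, 6.2% passed as higher in Strain and 9.35% in No Strain. Aif1, a calcium-binding protein of macrophages, rose by 1.75 (SE 0.20, adjusted p = 0.00251) and 1.85 (SE 0.22, adjusted p = 0.00144), and Ctss, the lysosomal protease cathepsin S, rose by 1.21 in Strain (SE 0.26, adjusted p = 0.0162) and 1.44 in No Strain (SE 0.28, adjusted p = 0.00767). Set against the mean log2 CPM of this list in the same library, Clec10a stood between 0.23 and 0.64 log2 units above the list in every TD library and between -1.52 and -0.34 units from it in every patch library. Folr2 and Mgl2 also lay lower relative to the list without overlap in both patch groups (mean differences of -1.48 and -1.86 for Folr2, -2.45 and -2.42 for Mgl2), as Retnla did; Mrc1 and Cd163 did so in No Strain (-1.13 and -2.49), while Chil3, Arg1, Il4ra and Pdcd1lg2 overlapped. Relative to the same list, 16.4% of all genes tested lay lower without overlap in Strain and 64.2% in No Strain. Retnla is left out of this comparison because its fall led to its choice. Of the 9 other members, Clec10a, Folr2 and Mgl2 lay lower without overlap in Strain, a larger share than that of all genes. In No Strain these genes with Mrc1 and Cd163 did so, which is not a larger share than that of all genes.

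**Figure D3:**
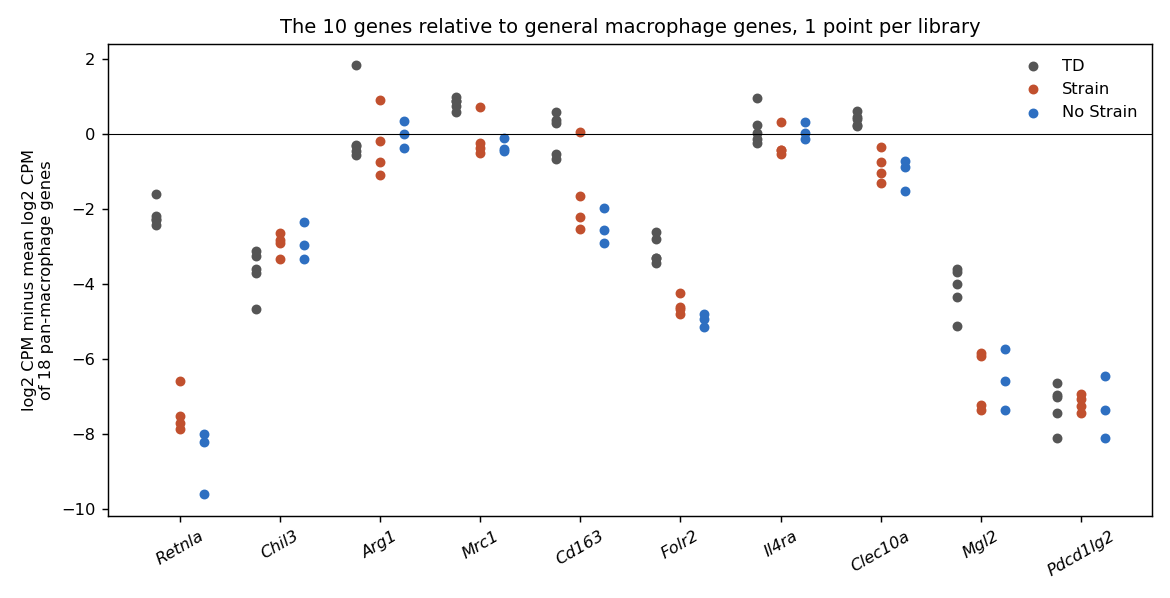
Log2 CPM of each gene minus the mean log2 CPM of 18 pan-macrophage genes in the same library (vertical axis, log2 units), 1 point per library, for TD (grey), Strain (red) and No Strain (blue). Clec10a and Folr2 separate TD from both patch groups on this scale, whereas Chil3, Arg1, Il4ra and Pdcd1lg2 overlap.

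The cytokines that drive the pathway were rare. Il4 had 14 to 35 counts per library, at 1.11 ± 0.18 CPM in TD (SD, n = 5), 0.979 ± 0.37 in Strain (n = 4) and 1.02 ± 0.13 in No Strain (n = 3), with log2 fold changes of -0.18 (adjusted p = 0.654) and -0.13 (adjusted p = 0.771) against TD. Il13 had 1 to 13 counts, with log2 fold changes of -0.95 (adjusted p = 0.174) and -1.61 (adjusted p = 0.0555). Of the 10 type 2 ligands and alarmins, 7 could be tested, of which 0 were called in Strain and 2 rose in No Strain: the epidermal growth factor family member Areg (2.36 ± 0.83 CPM in TD and 6.71 ± 2.21 CPM in No Strain, adjusted p = 0.0246) and the myeloid growth factor Csf2 (2.92, adjusted p = 0.0255, 0 to 29 counts). Over all genes tested, 12.6% were called in Strain and 17.8% in No Strain. At unadjusted p under 0.05 the Strain comparison held 5487 of the 18618 genes. The keratinocyte and stromal alarmins Il33 and Tslp had estimates of -0.46 and -0.43 in Strain and did not pass in either comparison.

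Among 14 receptor and signalling genes, 2 rose in Strain and 4 in No Strain, none fell, and the medians were 0.28 and 0.40. Of all genes tested, 12.6% were called in Strain and 17.8% in No Strain. Il2rg, the common gamma chain that pairs with the IL-4 receptor in blood cells, rose by 1.14 (adjusted p = 0.00582) and 1.03 (adjusted p = 0.00601), and Socs1, a feedback inhibitor of cytokine signalling, by 1.02 (adjusted p = 0.0143) and 1.53 (adjusted p = 0.00276). Both also serve other cytokines. Stat6 itself had estimates of 0.04 and 0.03 (adjusted p = 0.780 and 0.822), and Il13ra1, the partner of Il4ra in the receptor for IL-13, of 0.26 and 0.22 (adjusted p = 0.0815 and 0.140).

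Of 30 further target genes of type 2 activated macrophages, 27 could be tested; 3 rose and 5 fell in Strain, and 4 rose and 7 fell in No Strain, with median log2 fold changes of -0.16 and -0.31. Ccl24, eotaxin-2, an attractant of eosinophils, fell by 2.23 (SE 0.35, adjusted p = 0.00629) and 2.15 (SE 0.39, adjusted p = 0.00594), from 7.25 ± 3.24 CPM in TD. Irf4, the transcription factor that acts with STAT6 in macrophage polarisation, fell by 1.17 (SE 0.23, adjusted p = 0.0128) and 1.71 (SE 0.27, adjusted p = 0.00357), from 19.2 ± 5.38 CPM in TD. Ear2, an eosinophil-associated ribonuclease, fell by 1.74 in Strain (adjusted p = 0.00727) and 1.26 in No Strain (adjusted p = 0.0202); its gene family has close copies, so its count is uncertain. Ms4a4a, a membrane protein of type 2 activated macrophages, rose by 0.93 (adjusted p = 0.0254) and 1.04 (adjusted p = 0.0159), and Flt1, a receptor for vascular endothelial growth factor that is also strong in endothelium, rose by 0.48 (adjusted p = 0.0219) and 0.57 (adjusted p = 0.0108). The list thus held genes called in both directions, as the 10 members did. Over all genes tested, 6.2% were called higher and 6.41% lower in Strain, and 9.35% and 8.4% in No Strain. These are smaller shares than in this list, which was chosen with earlier results of these data known.

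**Figure D4:**
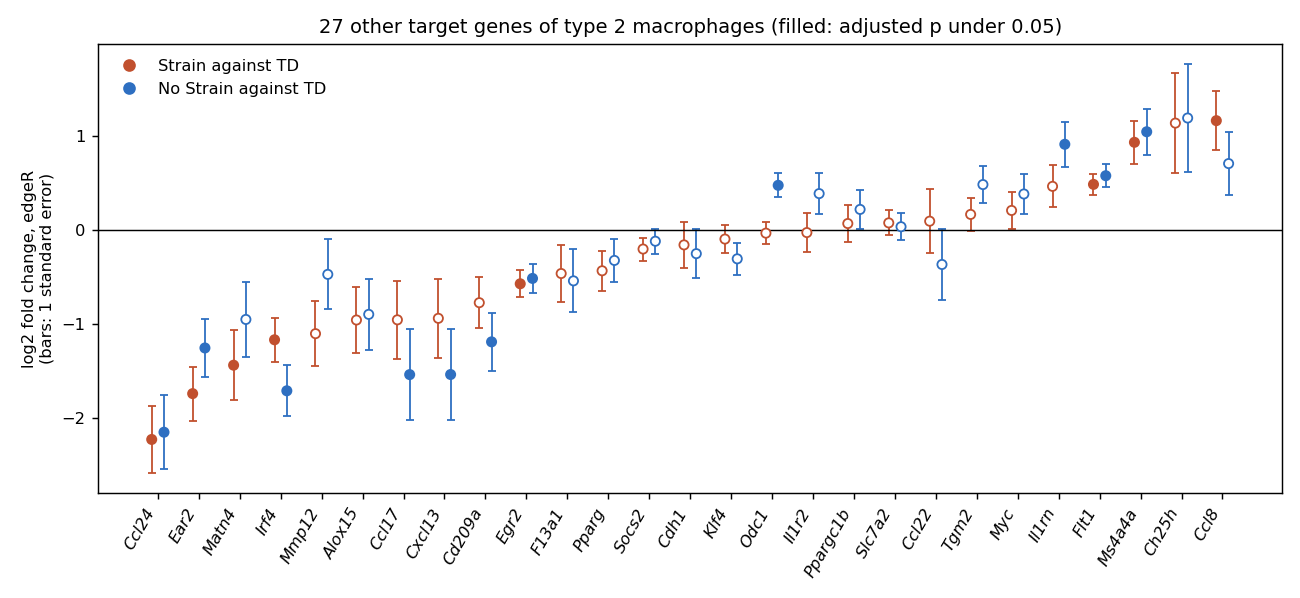
Log2 fold change against TD (vertical axis, edgeR, bars of 1 standard error) of the 27 tested target genes of type 2 activated macrophages other than the 10 members, in Strain (red) and No Strain (blue), ordered by the Strain estimate; filled points passed an adjusted p of 0.05 over all genes. Ccl24, Ear2 and Irf4 are filled below 0 and Flt1 and Ms4a4a above 0 in both comparisons.

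Resident macrophage genes were also called in both directions. Of 27 tested, 2 rose and 1 fell in Strain, where 12.6% of all genes were called, and 2 rose and 6 fell in No Strain, where 17.8% were. The Strain share of this list is below that of all genes. In No Strain the share called is above that of all genes. The share that fell there is also above the 8.4% of all genes called lower. Lyve1, the hyaluronan receptor of perivascular macrophages and of lymphatic vessels, fell by 1.46 (adjusted p = 0.0107) and 1.47 (adjusted p = 0.0102), and Vsig4, a complement receptor, by 1.67 in No Strain (adjusted p = 0.0269). Clec4n (dectin-2) rose by 1.32 and 1.64 (adjusted p = 0.0160 and 0.00610), and Ms4a7 by 1.11 and 1.29 (adjusted p = 0.0144 and 0.00714). Beside these, 12 of 24 monocyte and inflammatory macrophage genes rose in Strain and 17 in No Strain with none lower, among them Il1a, encoding interleukin-1 alpha (1.51 and 2.56, adjusted p = 0.00539 and 0.000439). Over all genes tested, 6.2% were called higher in Strain and 9.35% in No Strain. Other white blood cell lists were higher in part: 5 and 4 of 12 T cell genes, with Cd4 at 1.68 and 1.43 (adjusted p = 0.00736 and 0.00990), and 3 and 5 of 16 dendritic cell genes, with Cd274, the PD-L1 gene, at 1.81 and 2.14 (adjusted p = 0.0162 and 0.00748). The medians of the dendritic cell list were 0.23 and 0.26. In that list Flt3, Xcr1, Clec9a, Zbtb46 (-0.014 and -0.015) and Itgax (-0.76 and -0.55) were not called in either comparison. Of 18 eosinophil, mast cell, basophil and innate lymphoid genes, 2 rose in Strain (Ptgdr2, 2.06, adjusted p = 0.0126, and Il1rl1, 1.19, adjusted p = 0.0329), and in No Strain Areg rose and Gata3 fell by 1.46 (adjusted p = 0.0132). In both comparisons, 2 of 18 is a smaller share than that of all genes.

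Tissue genes differed as well. Over all genes tested, 6.41% were called lower in Strain and 8.4% in No Strain, and 6.2% and 9.35% higher. Skeletal muscle genes fell for 15 of 19 in Strain and 4 of 19 in No Strain, with medians of -1.53 and -0.81, as for Eno3, muscle enolase (-1.86 and -1.44, adjusted p = 0.00386 and 0.00689). Adipocyte genes fell for 10 of 15 and 13 of 15, with medians of -0.87 and -2.001, as for Lep, the fat hormone leptin (-1.79 and -3.05, adjusted p = 0.0122 and 0.00249). With the mean of the muscle genes as a covariate, Retnla's estimate was -5.31 in Strain and -6.00 in No Strain, and no other member was called in Strain, where 1 gene of all was. The muscle mean did not overlap between TD and Strain, so this fit tells muscle and treatment apart only in part. No fit used the adipocyte genes as a covariate, and the part of tissue differences in Retnla's values was not tested. Fibroblast genes were called for 0 and 1 of 12 (Pi16, -1.36 in No Strain, adjusted p = 0.0459), keratinocyte genes for 0 and 1 of 12 (Krt15, -2.56, adjusted p = 0.0405), and endothelial genes rose for 3 of 11 and fell for 1 in each comparison, with Emcn at 1.06 and 0.93 (adjusted p = 0.00370 and 0.00348). No gene of any list was called between Strain and No Strain.

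Close relatives of the 2 secreted products were also examined. Retnla shares no 50-base stretch with Retn, Retnlb or Retnlg. Retn, the adipocyte hormone resistin, fell by 1.54 in Strain (SE 0.41, adjusted p = 0.0325) and by 2.52 in No Strain (SE 0.48, adjusted p = 0.00710), from 10.7 to 38.4 CPM over the TD libraries to 2.83 to 10.5 CPM over the patch libraries. Retnlg, a resistin-like gene of neutrophils, rose by 1.37 (SE 0.34, adjusted p = 0.0281) and 2.81 (SE 0.36, adjusted p = 0.00220). Retnlb had 0 counts in all 12 libraries, which at the floor of 3 counts allows at most 0.147 CPM in any library. Chil4, the close copy of Chil3 in which 16.9% of the 50-base stretches of Chil3 recur, had 0 to 6 counts, against at least 181 for Chil3.

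The 5 genes whose pattern over the 12 libraries was most like Retnla's were Mrgprg, Mstn, Mylk4, Nos1 and Pyy. Likeness was the root mean square difference of log2 CPM after each gene was centred on its own mean, which was 1.11 log2 units for Mrgprg, 1.12 for Mstn, 1.22 for Mylk4, 1.23 for Nos1 and 1.28 for Pyy, beside 2.52 for a gene that does not vary. Mstn, the muscle growth inhibitor myostatin, stood at 9.33 to 27.3 CPM in TD, 1.05 to 4.95 in Strain and 0.511 to 1.80 in No Strain, and Mrgprg, an orphan receptor of sensory neurons, at 3.96 to 32.5, 0.0389 to 1.84 and 0.0429 to 0.720 CPM. Of the 9 members, Mgl2 was nearest to Retnla, at 1.78 (rank 150 of 18617 genes), followed by Cd163 (2.01), Folr2 (2.12), Clec10a (2.28) and Mrc1 (2.43). Il4ra (2.81), Arg1 (2.87), Pdcd1lg2 (2.91) and Chil3 (3.35) lay farther from Retnla than a gene that does not vary.

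Between libraries of the same group, the 4 highest correlations over all 12 libraries were between pairs of Mrc1, Clec10a, Folr2 and Cd163. Several of those with Retnla depended on the No Strain group. Log2 CPM was centred on the mean of each group and correlated over the 12 libraries, with exact two-sided permutation of libraries within groups. This comparison of 45 pairs was added after the values were seen, and the points share library composition. The 4 largest were Folr2 with Clec10a (Pearson's r = 0.87, permutation p = 0.00226; Spearman's rho = 0.89, p = 0.00642), Mrc1 with Folr2 (r = 0.85, permutation p = 0.00556; rho = 0.81, p = 0.0152), Mrc1 with Clec10a (r = 0.81, permutation p = 0.0117; rho = 0.75, p = 0.0325) and Mrc1 with Cd163 (r = 0.79, permutation p = 0.00324; rho = 0.66, p = 0.0186). Their adjusted p for r were 0.0729, 0.0833, 0.105 and 0.0729, and for rho 0.210, 0.210, 0.293 and 0.210. After adjustment 0 of the 45 pairs passed. Without the 2 libraries farthest from the median of the first gene, r was 0.79, 0.69, 0.67 and 0.90 in the same order. By group, again in this order, r was 0.997, 0.970, 0.975 and 0.774 in TD. It was 0.373, 0.047, 0.153 and 0.967 in Strain, and 0.989, 0.869, 0.786 and 0.925 in No Strain. Cd163 with Il4ra (r = 0.70) came next over all libraries, above Cd163 with Folr2 (0.64) and Cd163 with Clec10a (0.58). TD 2 and TD 5 were the highest TD libraries for Mrc1, Cd163, Folr2 and Clec10a, and also for Retnla. Retnla's correlations with the 9 members ran from -0.50 (Chil3) to 0.31 (Mgl2), with a smallest permutation p of 0.202 (adjusted p = 0.570). Without No Strain 1 and No Strain 3, where Retnla had 23 and 8 counts, r with Retnla went from 0.18 to 0.86 for Cd163, from 0.18 to 0.70 for Clec10a, from 0.06 to 0.69 for Mrc1, from 0.22 to 0.59 for Folr2 and from -0.36 to 0.53 for Il4ra. Groups were centred again in that step, so No Strain 2 alone stood at 0 and the No Strain group no longer counted. Within No Strain, r with Retnla was negative for all 5 genes, from -0.988 (Cd163) to -0.351 (Clec10a). It ran from 0.448 (Il4ra) to 0.892 (Cd163) in TD and from -0.098 (Folr2) to 0.861 (Mrc1) in Strain. The low values over all libraries therefore rest on the No Strain group, with 3 libraries and 8 to 23 counts of Retnla. Whether these 5 genes vary with Retnla between libraries cannot be read from these values.

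**Figure D5:**
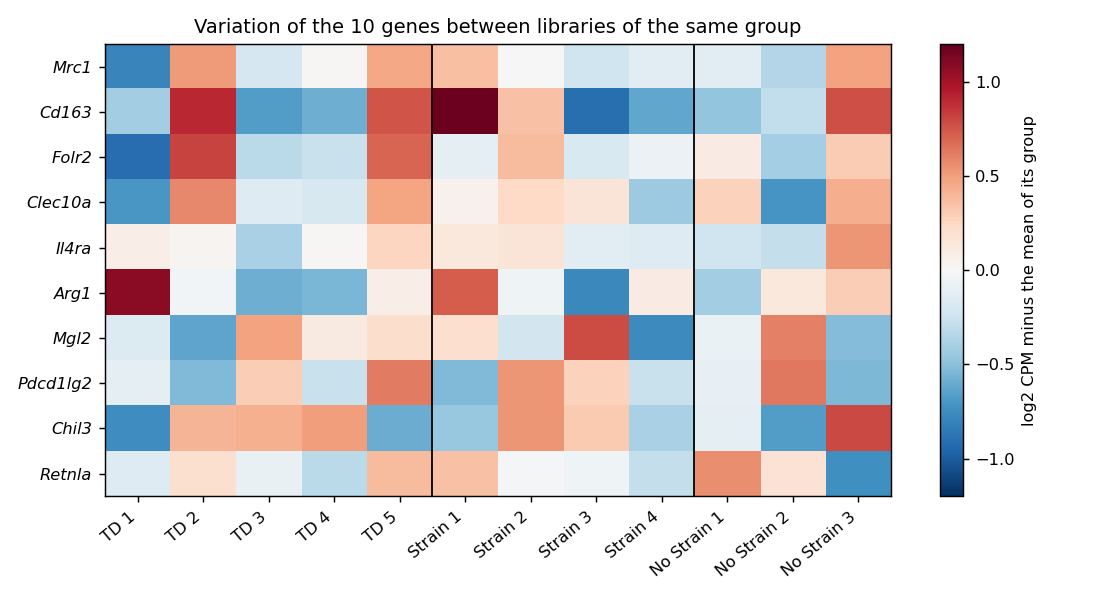
Log2 CPM of each gene minus the mean of its group (colour, log2 units, limited to 1.2 on either side of 0) in the 12 libraries, with vertical lines between groups. Mrc1, Cd163, Folr2 and Clec10a share their high libraries TD 2, TD 5 and No Strain 3, in the last of which Retnla is below its group mean.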

How the data were processed

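The deposited values are whole-number read counts per Ensembl gene, with 1 file per wound library, per the file headers. Per the labels' protocols, RNA was extracted from frozen wounds, enriched on oligo(dT) beads and made into Illumina libraries with a NEBNext Ultra RNA kit. The submitters' processing notes name bcl2fastq 2.17, FastQC, cutadapt, STAR, featureCounts, DESeq2 and the mouse build GRCm38; how strand and reads with several matches were treated, and the annotation release, are not given in the sources used here. Groups came from the group label of each sample, and libraries were numbered within a group in the order of the deposit.

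Of 54232 identifiers, 54079 matched a symbol in the reference annotation. Genes were kept by filterByExpr (minimum count 10, minimum total 15) in edgeR 4.0.16 under R 4.3.3, scaled by TMM and fitted over all 12 libraries with the robust quasi-likelihood test; the Benjamini-Hochberg adjustment ran over 18618 genes, with a threshold of 0.05. A standard error is the absolute log2 fold change divided by the square root of F. Log2 CPM used a prior count of 2. The fit was tested on simulated data with 200 changed genes per comparison. Changes of 1 log2 unit were recovered for 62% of genes in each comparison with TD and 47% in Strain against No Strain. Changes of 2 log2 units were recovered for 83% in Strain against TD and 88% in the others. Of the calls in these simulations, 3.57% to 5.23% were false. Counts were drawn gene by gene from the fitted spread, without tissue differences shared between genes. Against TD, far more genes were called in the data than were changed in the simulations. The shares recovered and false therefore describe the simulations and not the error of the real comparisons. For the 19 pairs of libraries of one group, the chi-square over its degrees of freedom was 8.69 to 67.1, so no pair agreed within sampling noise. Alternatives used DESeq2 1.42.0, limma 3.58.1, other scalings and filters, covariates and left-out libraries.

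The 10 genes and the 15 gene lists were chosen with earlier results of these data known. Named genes are the 10 members, up to 2 genes per list, direction and comparison with TD with the smallest p among those called, the relatives Chil4, Retnlb, Retn and Retnlg, Il4 and Il13, and the 5 genes most like Retnla; others (Arg2, Stat6, Il13ra1, Il33, Tslp) were named after their values were seen. Levels relative to the pan-macrophage genes were added after values were seen, as were the correlations. Lists share Il10, Il1r2, Cd80, Areg and Lyve1. The 10 genes in the groups of 4 and 5 libraries were screened for a library that stood apart (Dixon's test) on the CPM and the log2 CPM scale, 40 screens in all, of which chance flags about 2.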

Additional observations from a re-analysis of the deposited data

Results flagged for a closer look

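Arg1 in TD 1 stood at 350.0 CPM, with the next TD library at 175.1 CPM. The gap was 0.73 of the range of the 5 TD libraries, above Dixon's critical value at the 95% level, and 0.60 of the range on the log2 scale, which is below it. It was the only one of 40 screens to pass, where chance flags about 1 in 20 groups. Arg1 passed the test in No Strain against TD without this library (log2 fold change 1.10, adjusted p = 0.0433 in edgeR), and not with it (0.72, adjusted p = 0.227).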

How the results depend on the processing

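Retnla's estimate against TD kept its direction in all 21 alternatives to each comparison, from -5.31 to -4.54 in Strain and from -6.00 to -5.34 in No Strain. This difference chose the gene in these same libraries, so the kept direction is a description and no further support for it. Of the genes called in Strain against TD (2349), 1527 were called with no filter on low counts, 798 with the title letter as a covariate and 1 with the muscle list as a covariate, and 882 to 2458 on leaving out 1 library, lowest without Strain 2. In No Strain against TD (3305) the counts were 2145 with the letter, 841 with the muscle list and 1505 to 3415 on leaving out 1 library, lowest without No Strain 3; scaling by library totals alone put 38.1% of calls higher instead of 52.7%, with a median of all genes of -0.06. Between Strain and No Strain, DESeq2 called 29 genes and every fit without 1 library called 0. Of the members other than Retnla, Strain against TD called 1 with no filter, 1 with the letter, 0 with the muscle list and 1 to 2 without 1 library; No Strain against TD called 5 with DESeq2, 1 with the muscle list and 0 to 5 without 1 library, with 0 without No Strain 3 and 5 without TD 1. The sign of Arg1 in Strain against TD turned with the letter (-0.21) and the muscle list (-0.53). Between Strain and No Strain, where no member was called under any alternative, signs turned for Chil3 with the muscle list (0.44), Folr2 with the muscle list (-0.10), Mrc1 with limma-voom (0.06) and library totals (0.031), and Clec10a with limma-voom (0.036). On leaving out 1 library these differences ran from -0.60 to 0.18 for Chil3, -0.18 to 0.27 for Mrc1, -0.018 to 0.324 for Folr2, -0.36 to 0.13 for Clec10a, -0.55 to 0.18 for Mgl2 and -0.34 to 0.30 for Pdcd1lg2. The causes were not tested. A filter at a mean of 5 CPM removed Pdcd1lg2, which has no value there. No paired analysis was possible because the labels do not say which wounds shared a mouse. Depth limits Retnla in the patch groups (8 to 37 counts), Pdcd1lg2 and the cytokine genes.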
